A study of Rattus norvegicus with 40 samples.

Results

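Transcripts of 8 genes that move ions and bicarbonate across the gut epithelium, or that signal to those transporters through guanylin, were followed in the intestine and lung of rat embryos. The genes were taken by symbol: the peptide hormone genes Guca2a and Guca2b, their receptor Gucy2c, the exchangers and cotransporter Slc9a3, Slc26a3 and Slc4a4, and the carbonic anhydrases Car2 and Car4. All 8 were found, on 11 of the 31099 probe sets of the array (short oligonucleotides that together read 1 transcript), among 14217 genes with a value. Car2, Car4 and Slc4a4 have 2 probe sets each, and each gene is described by the brighter one, with the other given beside it.

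The study compared Wistar embryos at gestational day 20 (E20), close to birth, with embryos at day 16 (E16), and by its title asked how intestine and lung make ready for birth. There were 4 groups of 10 arrays each: intestine at E20, intestine at E16, lung at E20 and lung at E16. All embryos were of the same strain and had no treatment named, each sample is a whole organ, and the tissue frozen came from several siblings of timed matings. Intestine RNA was labelled from 1 µg and lung RNA from 2 µg, and this amount and the tissue cannot be told apart. Litter was not in the fit, so age and litter cannot be told apart if the arrays of an age are siblings, and every p-value refers to the spread between these arrays, which may be technical.

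Guanylin, encoded by Guca2a, and uroguanylin, encoded by Guca2b, are small peptides that intestinal cells secrete into the lumen. They bind guanylate cyclase C, encoded by Gucy2c, on the brush border and raise cyclic GMP in the cell. The cyclic GMP-dependent kinase Prkg2 then promotes chloride and bicarbonate secretion through the channel Cftr and restrains sodium uptake by the exchanger Slc9a3. Slc9a3 trades luminal sodium for protons, Slc26a3 trades luminal chloride for bicarbonate, Slc4a4 brings sodium and bicarbonate in across the basolateral membrane, and carbonic anhydrases interconvert carbon dioxide and bicarbonate.

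Promoter windows of 6 of the 8 genes were available from RefSeq (GRCr8 build), each 250 bases before to 50 bases after the gene start. Those of Guca2a, Guca2b, Slc26a3 and Slc9a3 are shown because these genes had large rises with age in the intestine, and because Guca2a and Guca2b are neighbours on chromosome 5. The genes flanking the pair in the RefSeq order are Foxj3 and Hivep3. Capitals mark matches, on either strand, to short motifs of factors known in gut epithelium: AGATAA for GATA factors, GTTAAT for HNF1 and CAAAGNNCA for HNF4. TTTATG for CDX factors was also searched, and TATAAA for the TATA box, and no match overlapped another.
Guca2a, chr5:138522196-138522495, plus strand: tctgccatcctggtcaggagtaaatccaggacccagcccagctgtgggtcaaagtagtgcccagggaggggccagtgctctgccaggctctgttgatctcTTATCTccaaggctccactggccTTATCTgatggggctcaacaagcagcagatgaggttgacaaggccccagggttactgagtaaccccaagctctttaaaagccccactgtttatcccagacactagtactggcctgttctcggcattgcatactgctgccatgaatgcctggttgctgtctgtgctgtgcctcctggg
Guca2b, chr5:138534161-138534460, minus strand: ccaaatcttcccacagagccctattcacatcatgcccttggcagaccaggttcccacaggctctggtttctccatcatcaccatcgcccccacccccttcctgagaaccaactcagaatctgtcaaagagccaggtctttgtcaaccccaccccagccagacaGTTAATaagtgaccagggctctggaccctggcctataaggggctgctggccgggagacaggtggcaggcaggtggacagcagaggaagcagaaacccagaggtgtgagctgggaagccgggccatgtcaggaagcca
Slc26a3, chr6:53751165-53751464, plus strand: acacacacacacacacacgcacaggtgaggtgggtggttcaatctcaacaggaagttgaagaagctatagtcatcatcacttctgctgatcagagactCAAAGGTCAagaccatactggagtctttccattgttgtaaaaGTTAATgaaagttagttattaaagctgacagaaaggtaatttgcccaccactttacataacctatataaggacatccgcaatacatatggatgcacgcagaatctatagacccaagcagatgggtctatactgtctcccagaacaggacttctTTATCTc
Slc9a3, chr1:30995953-30996252, minus strand: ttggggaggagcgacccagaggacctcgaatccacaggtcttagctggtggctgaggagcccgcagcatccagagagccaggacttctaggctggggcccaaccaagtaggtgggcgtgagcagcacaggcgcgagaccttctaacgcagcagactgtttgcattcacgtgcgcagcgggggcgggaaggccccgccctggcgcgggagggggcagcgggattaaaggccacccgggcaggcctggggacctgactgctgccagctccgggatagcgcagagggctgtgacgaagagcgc

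Positions give the first base of a match counted from the gene start, negative before it. Guca2a held the GATA motif on the opposite strand at -150 and -127, and Guca2b held the HNF1 motif at -87. Slc26a3 held the HNF4 motif at -152, the HNF1 motif at -110 and the GATA motif on the opposite strand at 44. The windows of Slc9a3 and Slc4a4 held none of the 5 motifs, and that of Car4 held TATAAA alone, at 20. Of 33469 rat promoter windows of this length, 11.6% held AGATAA, 7.45% GTTAAT, 6.08% CAAAGNNCA, 12.7% TTTATG and 14.2% TATAAA. These matches describe the letters of the windows and were not tested as binding sites.

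The deposited intensities were taken to log2, on which scale the median of all values was 7.89. A gene group mean below that is called dim here, because a low intensity holds much unspecific background. Array medians lay between 220 and 264 intensity units, and arrays of a group correlated at 0.970 to 0.995. Tissue labels were checked with marker genes, summarised as the mean log2 level of a list in each array. Intestinal epithelium markers (7 measured) stood at 12.14 to 12.52 in intestine at E20, 7.09 to 8.65 in intestine at E16, 6.09 to 6.56 in lung at E20 and 6.33 to 6.70 in lung at E16. At E16 the means of 4 of the 7 were dim in intestine. Lung epithelium markers (8 measured) stood at 12.71 to 13.37 in lung at E20 and 7.85 to 8.50 in lung at E16. In intestine they stood at 7.14 to 7.59 at E20 and 6.54 to 7.02 at E16. Of the 8, 4 had a mean above 7.89 in lung at E16, and 2 had one in intestine at E20, Slc34a2 (10.74) and Abca3 (9.31). In a whole organ, fewer cells of a type and less RNA per cell cannot be told apart.

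Within the intestine at E20, replicates 6 to 10 stood apart from replicates 1 to 5. Over the 9772 genes whose mean lay above 7.89, 18% did not overlap between these sets of 5 arrays, against 0.931%, 0.348% and 0.614% for the same split in intestine at E16, lung at E20 and lung at E16. The labels do not say what divides the sets, which were noticed after the data were seen. Results for intestine at E20 are therefore also given for each set alone.

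In the intestine, transcripts of both guanylin peptides, their receptor and all 3 ion transporters were higher at E20 by 2.61 to 6.21 log2 units than at E16, while Car2 was lower and Car4 was not called. In the lung, the differences between the ages lay between -0.16 and 0.60. A gene was called at a limma adjusted p under 0.05 over all genes with a fold of at least 2. By that rule 6 of the 8 rose and 1 fell in intestine, where 15.1% of all genes were called, 8.79% higher and 6.26% lower. In lung none of the 8 was called by limma, against 11.8% of all genes. A limma adjusted p under 0.05 without regard to fold was held by 3 of the 8 in lung, against 66.7% of all genes. The median change of the 8 was 4.48 in intestine and 0.22 in lung, beside -0.086 and -0.0064 over all genes.

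**Figure D1:**
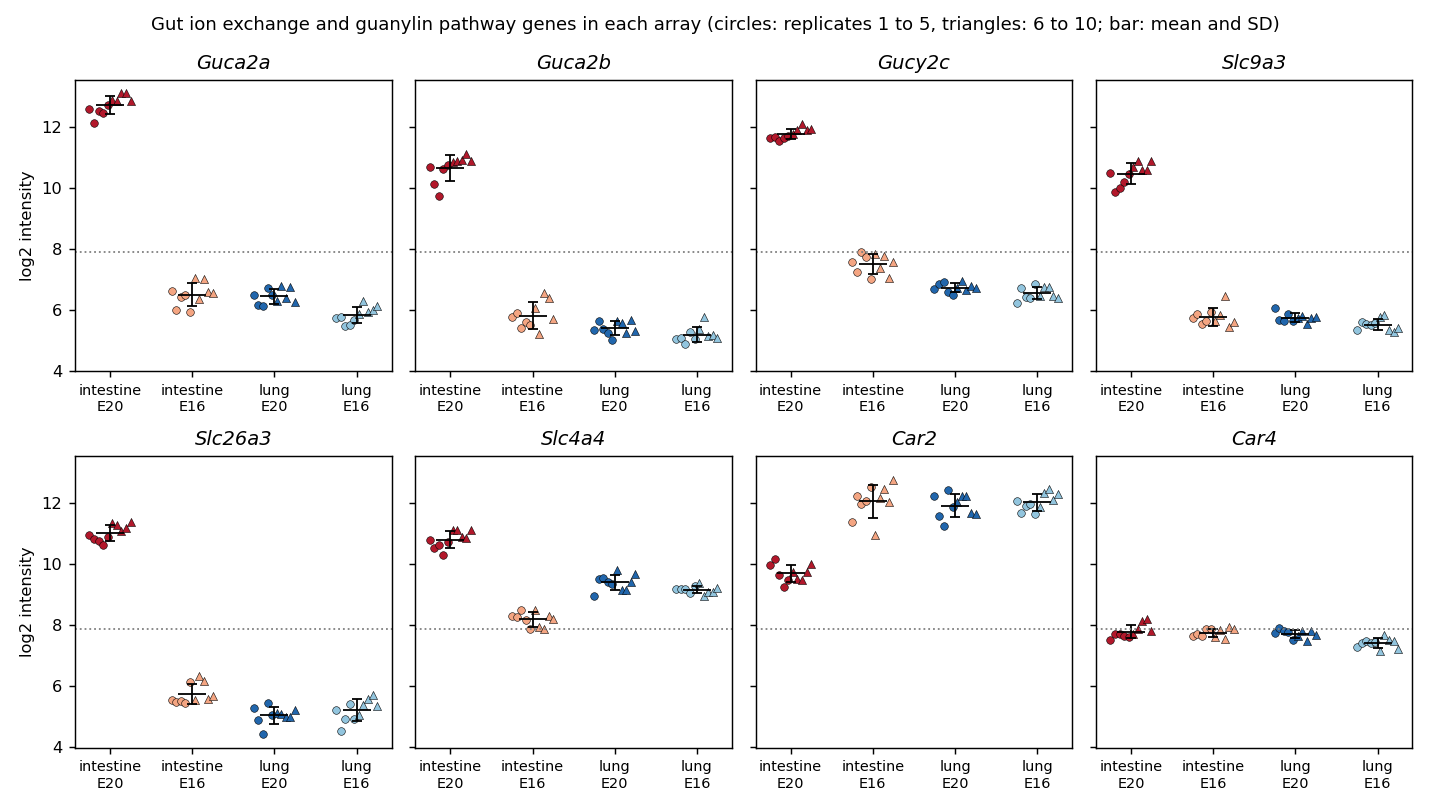
Log2 intensity of the 8 genes in each array of intestine at E20, intestine at E16, lung at E20 and lung at E16 (10 arrays each; circles are replicates 1 to 5, triangles 6 to 10, bars the mean and SD, the dotted line the median of all values, 7.89). The peptides, the receptor and the transporters stand highest in all 10 arrays of intestine at E20, Car2 stands lowest there, and Car4 lies between 7.15 and 8.19 throughout.

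Guca2a, which encodes guanylin, had a lowest, median and highest log2 intensity of 12.14, 12.78 and 13.11 in intestine at E20, against 5.92, 6.53 and 7.06 in intestine at E16. All 10 arrays at E20 lay above all 10 at E16, as for 17.3% of all genes, and 20.3% were separated the other way. The change was 6.21 (SE 0.13, limma adjusted p = 6.59e-35), a 74.2-fold difference and the 15th largest rise of the 14217 genes. In lung the arrays ran from 6.14 through a median of 6.43 to 6.80 at E20, against 5.49, 5.82 and 6.29 at E16. These ranges overlap, all lung values are dim, and the difference of 0.60 (SE 0.13, limma adjusted p = 6.21e-05) did not reach 2-fold.

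Guca2b, which encodes uroguanylin, stood at 9.73, 10.80 and 11.12 in intestine at E20, against 5.21, 5.74 and 6.56 in intestine at E16. The groups did not overlap, and the change was 4.84 (SE 0.15, limma adjusted p = 6.50e-29). Lung arrays were dim at both ages and overlapped, with 5.02, 5.35 and 5.69 at E20 against 4.89, 5.13 and 5.76 at E16. The lung difference was 0.21 (95% interval -0.082 to 0.51, limma adjusted p = 0.197). The neighbouring peptide genes thus both rose in intestine, Guca2a by 6.21 and Guca2b by 4.84, and neither was called in lung.

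Gucy2c, the receptor of both peptides, stood at 11.54, 11.72 and 12.10 in intestine at E20, against 7.02, 7.56 and 7.89 in intestine at E16. No arrays overlapped, and the change was 4.27 (SE 0.096, limma adjusted p = 1.21e-33). In lung it was dim, at 6.49, 6.72 and 6.93 at E20 against 6.22, 6.47 and 6.84 at E16, with a difference of 0.19 (95% interval -0.0074 to 0.38, limma adjusted p = 0.0841). The receptor was the gene of the 8 whose E16 intestine arrays all lay above the lung arrays of both ages.

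Intestine at E16 replicates 6, 8 and 9 held more transcripts of exocrine pancreas, an organ that lies against the gut. Their means over 10 pancreas markers were 8.23, 8.36 and 8.34, against 6.03 to 6.82 in the other 7 arrays. The same 3 arrays were the highest of their group for Guca2b, at 6.08, 6.56 and 6.41. Guca2a was highest in replicates 6 and 8, at 7.06 and 7.01, while replicate 9 stood at 6.59, below replicate 1 at 6.61. Replicates 6 and 8 also had the highest means of their group over 10 general epithelial markers, at 9.16 and 9.10. The part of pancreas or of epithelial content in these values was not tested. A further fit left out 7 arrays that held more transcripts of other tissues. They were the 3 arrays named here, intestine at E20 replicate 9, and lung at E20 replicates 1, 6 and 8. The intestine change in that fit was 6.33 for Guca2a and 5.01 for Guca2b, which does not isolate the effect of the 3 pancreas-rich arrays.

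Slc9a3, the sodium-proton exchanger of the brush border, stood at 9.87, 10.53 and 10.89 in intestine at E20, against 5.45, 5.69 and 6.47 in intestine at E16. The groups did not overlap, and the change was 4.69 (SE 0.11, limma adjusted p = 5.98e-33). In lung it was dim at both ages, at 5.52, 5.74 and 6.07 at E20 against 5.28, 5.54 and 5.83 at E16. Those ranges overlap, and the difference was 0.22 (95% interval -0.00088 to 0.44, limma adjusted p = 0.0736). The highest E16 intestine value, 6.47, was that of replicate 8, and the next was 5.93; without replicate 8 the intestine change was 4.77.

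Slc26a3, the chloride-bicarbonate exchanger, stood at 10.62, 11.03 and 11.39 in intestine at E20, against 5.47, 5.57 and 6.33 in intestine at E16. Every E20 array lay above every E16 array, and the change was 5.28 (SE 0.13, limma adjusted p = 8.68e-32). In lung the arrays overlapped and were dim, at 4.42, 5.07 and 5.46 at E20 against 4.53, 5.28 and 5.72 at E16. The lung difference was -0.16 (95% interval -0.43 to 0.11, limma adjusted p = 0.300).

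Slc4a4, the basolateral sodium-bicarbonate cotransporter, differed from the preceding genes in being bright in all 4 groups. It stood at 10.29, 10.82 and 11.11 in intestine at E20, against 7.86, 8.24 and 8.51 in intestine at E16. The groups did not overlap, and the change of 2.61 (SE 0.10, limma adjusted p = 2.50e-25) was the smallest of the 6 rises. In lung it stood at 8.95, 9.43 and 9.80 at E20 against 8.97, 9.18 and 9.40 at E16, with overlap and a difference of 0.24 (SE 0.10, limma adjusted p = 0.0363) that did not reach 2-fold. Its other probe set showed the same direction in intestine without overlap, but a change of 0.99 (SE 0.072, limma adjusted p = 1.22e-15 over all probe sets), just under the fold asked for. The probe sets therefore disagreed on size, 1.80 being the change with both averaged.

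The levels that look low in lung and in intestine at E16 bound how the folds can be read. With an offset of 64 intensity units added before log2, which damps dim values, the intestine changes were 5.45 for Guca2a, 3.79 for Guca2b, 3.85 for Gucy2c, 3.63 for Slc9a3, 4.19 for Slc26a3 and 2.37 for Slc4a4. All 6 were called in that fit as well.

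The 2 sets of E20 intestine arrays differed in the same 6 genes. Replicates 6 to 10 all lay above replicates 1 to 5 in Guca2a, Guca2b, Gucy2c, Slc9a3, Slc26a3 and Slc4a4, with mean differences of 0.47, 0.55, 0.28, 0.52, 0.45 and 0.42. Of all 14217 genes, 7.27% lay higher in replicates 6 to 10 without overlap and 8.31% lower. For Guca2a, for example, the lowest, median and highest were 12.84, 12.88 and 13.11 in replicates 6 to 10 and 12.14, 12.50 and 12.73 in replicates 1 to 5. Car2, Car4 and the mean of the erythroid markers overlapped between the sets. The intestinal epithelium markers did not overlap between the sets either, at 12.37 to 12.52 in replicates 6 to 10 and 12.14 to 12.32 in replicates 1 to 5, and their part in the difference was not tested. General epithelial markers overlapped, at 11.80 to 12.08 against 11.68 to 11.93, and so did goblet cell markers, at 11.49 to 11.81 against 11.27 to 11.61. Lists of stomach markers and of other carbonic anhydrases also lay higher in replicates 6 to 10 without overlap, at dim levels. Smooth muscle markers (8 measured) ran the other way with overlap, at 11.30 to 11.69 in replicates 6 to 10 and 11.48 to 12.20 in replicates 1 to 5.

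The rises with age were present against either set. With replicates 6 to 10 as the only E20 intestine arrays the changes were 6.45 for Guca2a, 5.11 for Guca2b, 4.41 for Gucy2c, 4.95 for Slc9a3, 5.51 for Slc26a3 and 2.82 for Slc4a4. With replicates 1 to 5 they were 5.98, 4.56, 4.13, 4.43, 5.06 and 2.40 in the same order of genes. In both fits the same 7 genes were called, Car2 included.

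Car2, the cytosolic carbonic anhydrase that is abundant in red blood cells as well as in epithelia, moved the other way. It stood at 9.25, 9.69 and 10.16 in intestine at E20, against 10.95, 12.12 and 12.76 in intestine at E16. No arrays overlapped, and it fell by 2.36 (SE 0.16, limma adjusted p = 1.63e-16). In lung it stood at 11.26, 11.97 and 12.44 at E20 against 11.64, 12.02 and 12.45 at E16, with overlap and a difference of -0.11 (95% interval -0.44 to 0.22, limma adjusted p = 0.582). The other Car2 probe set also fell in intestine, by 1.27 (SE 0.14, limma adjusted p = 3.62e-10 over all probe sets, of which 11.8% were called), with overlap between the ages.

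Red cell transcripts moved with Car2 in the intestine. All 9 measured erythroid markers fell in intestine (median change -3.16), where 6.26% of all genes were called lower. Their array means in intestine were 7.53 to 8.52 at E20 against 11.34 to 12.58 at E16. In lung 5 of the 9 fell (median -1.14), where 4.63% of all genes were called lower. Their array means in lung were 8.66 to 9.91 at E20 against 11.02 to 11.65 at E16, while Car2 overlapped between the ages. Within a group, where age is constant, Car2 could be set against the erythroid mean over 10 arrays in 3 groups, intestine at E20 being left out because its arrays fall into separate sets of 5. Pearson's r was 0.95 in intestine at E16 (permutation p = 3.00e-05, adjusted 9.00e-05), 0.96 in lung at E20 (permutation p = 5.00e-05, adjusted 1.00e-04) and 0.40 in lung at E16 (permutation p = 0.246, adjusted 0.295).

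Spearman's rho for the same groups was 0.98 (permutation p = 2.00e-05), 0.94 (permutation p = 1.80e-04) and 0.47 (permutation p = 0.178). Without the 2 arrays farthest from the median of the erythroid mean, r was 0.88, 0.93 and 0.18. For the other Car2 probe set r was 0.96 in intestine at E16 (permutation p = 3.00e-05), 0.65 in lung at E20 (permutation p = 0.0436, adjusted 0.0654) and 0.31 in lung at E16 (permutation p = 0.373). The 6 relations were adjusted together, were chosen after the data were seen, and share the level and quality of each array. Both probe sets followed the erythroid mean in intestine at E16. The part of red cell transcripts in the intestinal Car2 change was not tested.

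**Figure D2:**
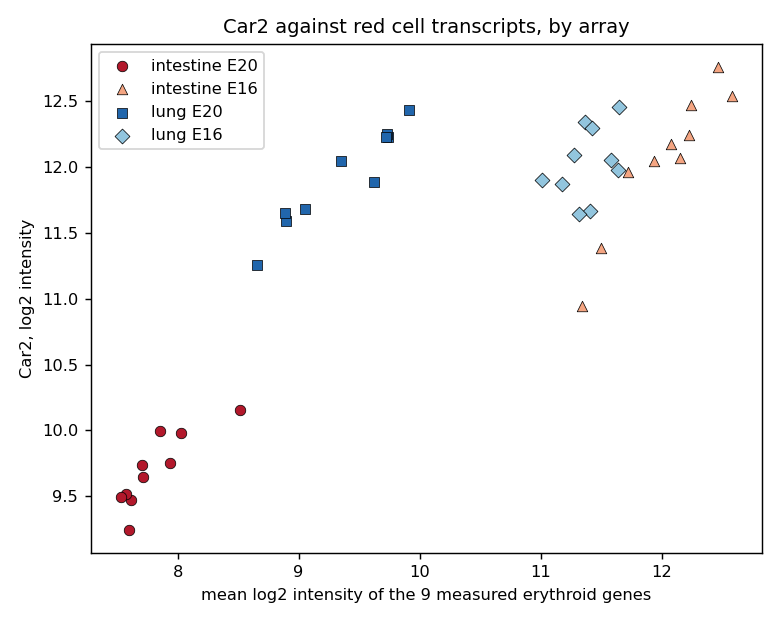
Car2 (vertical axis, log2 intensity) against the mean log2 intensity of 9 erythroid markers (horizontal axis) in each of the 40 arrays, coloured by group. Car2 is higher in arrays with a higher erythroid mean within intestine at E16 (Pearson's r 0.95) and lung at E20 (0.96). Within lung at E16 r was 0.40 (permutation p = 0.246). Car2 stands at 11.26 to 12.44 in lung at E20, where the erythroid means are 8.66 to 9.91.

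Car4, the carbonic anhydrase anchored at the outer face of the membrane, was not called in either tissue. Its group means were 7.79 ± 0.22 in intestine at E20, 7.76 ± 0.13 in intestine at E16, 7.72 ± 0.13 in lung at E20 and 7.41 ± 0.16 in lung at E16 (SD, n = 10 arrays each), all dim. In intestine the ages overlapped and the difference was 0.034 (95% interval -0.11 to 0.18, limma adjusted p = 0.697). In lung it was 0.31 (95% interval 0.16 to 0.46, limma adjusted p = 3.02e-04), below the fold asked for. The other Car4 probe set gave 0.23 in intestine and -0.066 in lung, so the probe sets differed in which tissue showed the larger change.

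**Figure D3:**
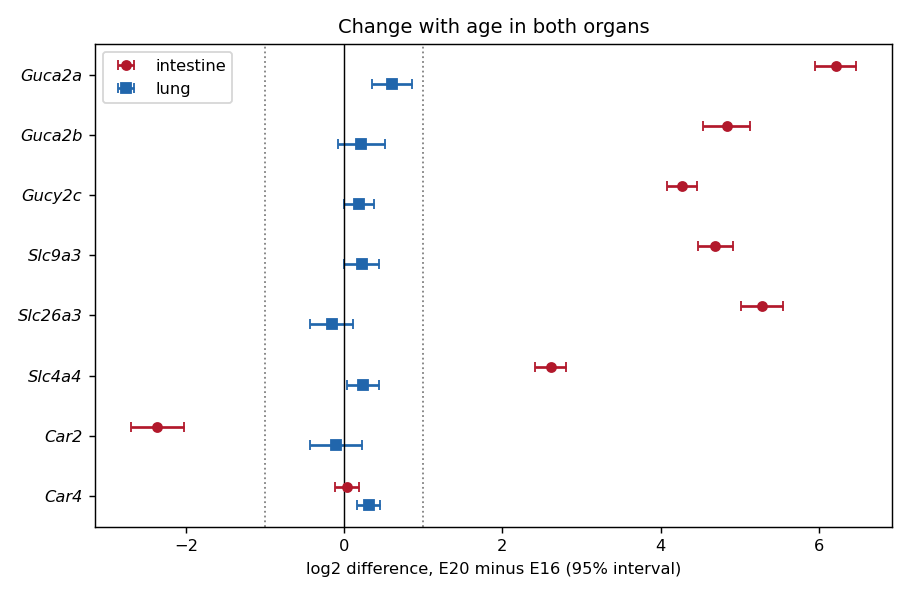
Change with age (E20 minus E16, log2) of the 8 genes in intestine and in lung, with 95% intervals from limma (10 arrays per group) and dotted lines at a 2-fold difference. In intestine 6 genes lie between 2.61 and 6.21 and Car2 at -2.36, while all lung changes lie between -0.16 and 0.60.

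The difference between the tissues was tested directly, as the intestine change minus the lung change. It was called for 7 of the 8 genes, 6 with the larger rise in intestine and Car2 with the larger fall, where 17.6% of all genes were called, 8.48% toward a higher value in intestine and 9.13% toward a lower one. The estimates were 5.61 for Guca2a, 5.44 for Slc26a3, 4.62 for Guca2b, 4.47 for Slc9a3, 4.08 for Gucy2c and 2.37 for Slc4a4, with limma adjusted p between 1.92e-27 and 2.19e-18. For Car2 it was -2.25 (SE 0.23, limma adjusted p = 2.81e-11). The other probe sets gave smaller differences, 0.91 for Slc4a4, which is under 2-fold, and -1.15 for Car2. For Car4 it was -0.27 (95% interval -0.48 to -0.065, limma adjusted p = 0.0188), not reaching 2-fold, and 0.30 with its other probe set.

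At E16 the tissues differed by less than 2-fold in all 8 genes. None of the 8 genes was called by limma between intestine and lung, where 5.13% of all genes were. It was the fold that was not reached, since 7 had a limma adjusted p under 0.05, as had 64.1% of all genes. Gucy2c was 0.96 higher in intestine (SE 0.096, limma adjusted p = 3.11e-11) and Slc4a4 0.97 lower in it (difference -0.97, SE 0.10, limma adjusted p = 6.72e-11), both without overlap of arrays, as for 19.3% of all genes, and both just under 2-fold. Slc4a4 passed the fold with quantile normalization (-1.05) and with centred arrays (-1.12), and its other probe set showed -0.0082. Guca2a and Guca2b were 0.66 and 0.62 higher in intestine, Slc26a3 0.54, Car4 0.35 and Slc9a3 0.25, all with levels that were dim in both tissues. Car2 differed by 0.029 (95% interval -0.30 to 0.36, limma adjusted p = 0.883), but by -0.83 with its other probe set (SE 0.14, limma adjusted p = 6.56e-06 over all probe sets).

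At E20 the tissues were far apart. All 6 genes that rose in intestine were higher there than in lung, by 6.27 for Guca2a, 5.98 for Slc26a3, 5.25 for Guca2b, 5.04 for Gucy2c, 4.72 for Slc9a3 and 1.40 for Slc4a4, and Car2 was lower (-2.22). The other probe sets gave 0.90 for Slc4a4, under 2-fold, and -1.98 for Car2. These 7 calls stand beside 16.1% of all genes called, 8.21% higher and 7.91% lower in intestine, and none of the 7 overlapped between tissues, as for 34.1% of all genes. Car4 differed by 0.072 (95% interval -0.076 to 0.22, limma adjusted p = 0.377), and by 0.56 with its other probe set (SE 0.083, limma adjusted p = 1.57e-07 over all probe sets). Calls were combined as a rise in intestine, no call in lung, a larger change in intestine and a higher level than lung at E20. This combination was met by 6 of the 8 genes and by 587 of all genes (4.13%). It was formed from calls already seen in the 8 genes, so the count of 6 restates those calls and is no further support.

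Ordered by group mean, Guca2a, Guca2b, Gucy2c and Slc9a3 ran in the order intestine at E20, intestine at E16, lung at E20 and lung at E16. For all but Gucy2c the lower 3 groups overlapped with their neighbours in this order. Slc26a3 had the same top pair, followed by lung at E16 and lung at E20, with overlap between neighbours among the lower 3. Its lowest array in intestine at E16 (5.47) lay just above its highest in lung at E20 (5.46). For Slc4a4 the order was intestine at E20, lung at E20, lung at E16 and intestine at E16, the middle pair overlapping. For Car2 the order was intestine at E16, lung at E16, lung at E20 and intestine at E20, with the upper 3 overlapping. Its other probe set had means of 12.16 in lung at E16, 12.04 in lung at E20, 11.33 in intestine at E16 and 10.06 in intestine at E20.

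The 8 patterns were compared by the root mean square difference between the 4 group means, each gene centred on its own mean. The nearest genes to Slc9a3 were Smim24 (0.069 log2 units) and the hormone gene Sct (0.073). Those nearest to Slc26a3 were Capn3 (0.055) and the glucose transporter Slc2a2 (0.064). Guca2a was nearest to the mucin Muc3 and the amino acid transporter subunit Slc7a9 (0.18 each), and Guca2b to the chemokine Cxcl11 (0.046) and the protease Capn13 (0.052). For Gucy2c these were Tm4sf20 (0.079) and the keratin Krt20 (0.10), and for Slc4a4 the lysosomal mannosidase Man2b1 (0.14) and the membrane protease St14 (0.17). Car2 lay nearest to the platelet tubulin Tubb1 (0.14) and C7h12orf75 (0.17), and Car4 to Gjb5 (0.010) and Pdgfrl (0.011). With 4 group means per gene, nearness describes levels and nothing more.

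Partners of these transporters were taken from a list of 32 further acid-base and chloride genes, of which 26 had a value. In intestine 6 of the 26 rose and 1 fell (median 0.27), where 8.79% of all genes were called higher and 6.26% lower. In lung 4 rose and 1 fell (median -0.060), where 7.15% of all genes were called higher and 4.63% lower. The largest rise was that of Pdzk1, a scaffold that holds transporters at the brush border, with 12.04 ± 0.10 in intestine at E20 against 5.47 ± 0.36 in intestine at E16 (SD, n = 10 arrays each), a change of 6.58 (SE 0.097, limma adjusted p = 2.02e-39). Nherf1, the scaffold that binds Slc9a3 and Cftr, rose by 2.55 (SE 0.059), and the lung differences of Pdzk1 and Nherf1 were -0.13 and 0.20. Slc26a6, another anion exchanger of the brush border, rose by 1.42, and Kcne3, a potassium channel subunit of secretory cells, by 1.65. Averaging the probe sets of Kcne3 gave 0.69, which is not called.

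Other partners were called in both organs or in lung. Cftr, the chloride channel downstream of cyclic GMP, rose by 2.02 in intestine and 2.34 in lung, and Atp1b1, a sodium pump subunit, by 2.36 in each. The difference between the tissues was -0.31 for Cftr (limma adjusted p = 0.0129, under 2-fold) and -0.0057 for Atp1b1 (limma adjusted p = 0.974). The chloride channel Ano1 rose in lung by 2.87 and the potassium channel Kcnq1 by 2.09, whereas the intestine differences were -0.16 for Ano1 and 0.89 for Kcnq1 (limma adjusted p = 3.18e-10), which is just under 2-fold for Kcnq1. For both, the difference between the tissues was called, at -3.03 and -1.20. Slc4a1, a red cell anion exchanger that is also an erythroid marker, fell by 4.22 in intestine and by 1.14 in lung. Averaging its probe sets gave -0.90 in lung, which is not called, as it is not in a test against a 2-fold change.

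Among 12 other carbonic anhydrases with a value, of 14 listed, 1 fell in intestine by limma, against 6.26% of all genes. Of the 12, 11 were not called (median change of the 12 -0.095). An unadjusted p under 0.05 was held by 7 of the 12, while 71.5% of all genes had an adjusted p under 0.05 there. The gene that fell was Car1, another red cell enzyme, with -3.01 (SE 0.24, limma adjusted p = 2.03e-14) in intestine and -1.33 in lung; the lung call did not pass a test against a 2-fold change. In lung the mitochondrial Car5b rose by 1.18, but was at 0.74 and not called with the offset of 64.

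Of 27 measured genes of cyclic GMP signalling (29 listed), 1 rose and 1 fell in intestine (median -0.014). Over all genes 8.79% were called higher and 6.26% lower, and counts this small cannot be set apart from those shares. None of the 27 was called by limma in lung, against 11.8% of all genes. An unadjusted p under 0.05 was held by 17 of the 27, while 66.7% of all genes had an adjusted p under 0.05 there. The gene that rose was Prkg2, the membrane-bound kinase that carries the guanylin signal, with 9.79 ± 0.24 in intestine at E20 against 5.37 ± 0.41 in intestine at E16 (SD, n = 10 arrays each). Its change was 4.43 (SE 0.14, limma adjusted p = 1.33e-28) in intestine and -0.70 in lung, where its levels were dim. The gene that fell was Gucy1a1, a subunit of the soluble guanylate cyclase that responds to nitric oxide, by 1.46 (SE 0.084), with 0.91 in lung, not called.

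**Figure D4:**
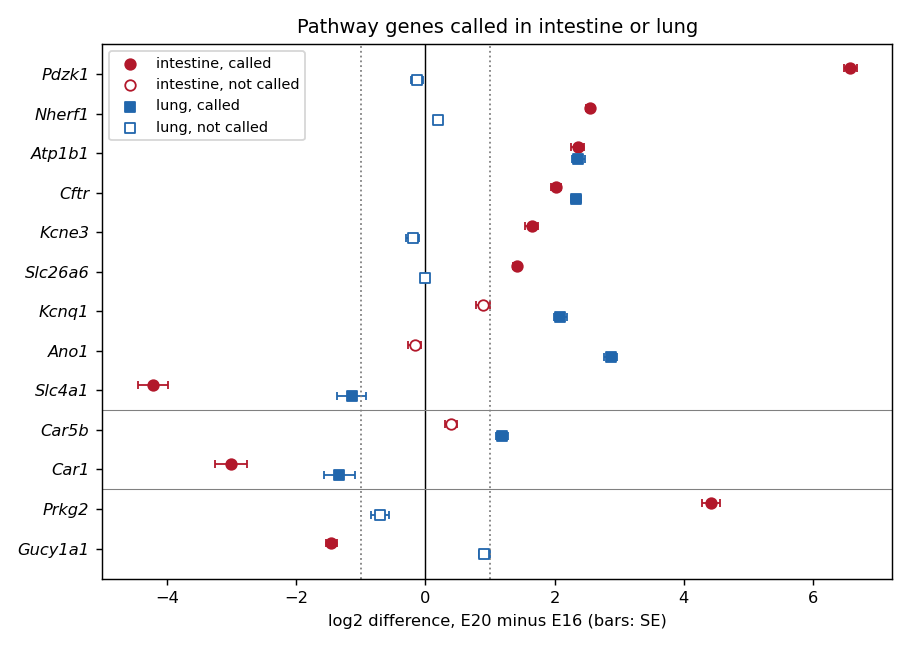
Change with age (E20 minus E16, log2) in intestine and in lung of the pathway genes called in either organ, with SE bars, filled points for calls, dotted lines at a 2-fold difference and solid lines between the lists. Pdzk1 (6.58) and Prkg2 (4.43) lead the intestine rises, with lung values of -0.13 and -0.70, and Atp1b1 stands at 2.36 in both organs.

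Epithelial and goblet cell markers moved with the 6 genes. All 7 intestinal epithelium markers rose in intestine (median 4.54), as did all 8 goblet cell markers (median 4.14) and all 10 general epithelial markers (median 3.06, array means 11.68 to 12.08 at E20 against 8.27 to 9.16 at E16). In lung 8 of the 10 general epithelial markers also rose (median 1.65, array means 10.66 to 11.06 at E20 against 8.92 to 9.49 at E16), and 3 of the 8 goblet cell markers (median 0.24), while none of the 7 intestinal ones was called by limma and 2 had an unadjusted p under 0.05. Over all genes, 8.79% were called higher in intestine and 7.15% in lung, and 66.7% had an adjusted p under 0.05 in lung. The part of epithelial cell number in the changes of the 6 genes was not tested.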

How the data were processed

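Total RNA of the whole organs was measured on 40 Affymetrix arrays, 10 for each tissue and age. The deposited values are summary intensities on a linear scale, made by the authors with RMA (background correction, normalization and probe summary), per the submitters' processing notes. Whether the tissues were normalized together, and any detection calls, are not given in the sources used here. Arrays have no sequencing depth, so their number limits the precision.

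Here log2 was taken of the deposited intensities. Of the 31099 probe sets, 20832 had 1 gene symbol in the platform annotation, 436 several and 9831 none; 57 were control probe sets and were left out. Of those with 1 symbol, 20764 had an Entrez identifier in a GRCr8 table of rat genes. The probe set that was brightest on average over the 40 arrays stood for each of the 14217 genes. A mean per group was fitted to all 40 arrays with limma 3.58.1 in R 4.3.3 and no covariate. The 5 contrasts were the age change of each tissue, their difference, and intestine minus lung at each age. A call needed a Benjamini-Hochberg adjusted p under 0.05 over all genes and a log2 difference of at least 1, two-sided. Intervals are 95% intervals of the fit, SD is over the arrays of a group, and the steps were tested on simulated data. Correlations of Car2 with the erythroid mean used 100000 permutations (numpy 2.4.6), two-sided, with the ranks for Spearman's rho from scipy 1.17.1.

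The members and gene lists were chosen with earlier results of these data known, so their direction is not independent evidence. Named genes were all 8 genes in every comparison, the list genes called in either organ (at most the 8 largest per list and tissue) and the 2 genes with the nearest pattern. Listed genes without a value were not analysed here. Promoter windows were copied from RefSeq and their motifs chosen after the arrays had been analysed. Replicate numbers are shared between groups, but nothing in the labels says that a number marks a shared embryo or litter. Correlations among the 8 genes within intestine at E20 had been planned and were computed, as was that of Car2 with the erythroid mean there, but are not reported, because those arrays fall into separate sets of 5 and a pooled correlation would mix them.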

Additional observations from a re-analysis of the deposited data

Results flagged for a closer look

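Among 44 groups of 10 arrays (11 probe sets in 4 groups), 2 had an array far from the other 9, which is about what chance gives (1 in 20). Slc26a3 in lung at E20 was lowest in replicate 3, at 4.42 against 4.91 in the next array, and both values are dim. Slc9a3 in intestine at E16 was highest in replicate 8, at 6.47 against 5.93 in the next array; replicate 8 is also among the 3 arrays with more pancreas transcripts.

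For 7 genes the intestine change differed from the lung change in a test of that difference by limma. The differences were 5.61 for Guca2a, 5.44 for Slc26a3, 4.62 for Guca2b, 4.47 for Slc9a3, 4.08 for Gucy2c, 2.37 for Slc4a4 and -2.25 for Car2.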

How the results depend on the processing

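The 7 genes called in intestine, for the difference between tissues and at E20 were called in every alternative run that tested them. No run used the other probe set of a gene alone. That of Slc4a4 was not called in these comparisons (0.99, 0.91 and 0.90), so its calls depend on the probe set. A filter kept the 9772 genes whose mean over the 40 arrays lies above the median of all log2 values. It left 3 of the 8 genes, and all 3 were called in each of these comparisons (2 higher, 1 lower). Of the 9772 genes, 16.4% were called in intestine, 18.8% for the difference and 16.5% at E20. Gucy2c was dim in every group but intestine at E20 and passed the filter only through that group, so its call there is no further support. In lung, 0 calls became 3 without a fold minimum, where 66.7% of all genes were called. For the difference of changes, 7 calls became 8 without it, Car4 being added, where 66.2% of all genes were called. At E16, 0 calls became 1 with quantile normalization, 1 with centred arrays and 7 without a fold minimum. Those runs called 5.17%, 5.16% and 64.1% of all genes at E16.

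Over the 8 genes, 536 of the recomputed differences kept direction and side of the threshold, 13 became called and 10 changed sign, all 10 for Car4 or Car2 at differences that were not called. The Car4 change in intestine was -0.018 with array weights, -0.032 without the arrays holding more transcripts of other tissues and -0.12 with E20 replicates 1 to 5 only. Its difference between tissues was 0.013 with probe sets averaged. At E20 its tissue difference was -0.0024, -0.011 and -0.081 in the 3 alternatives named for intestine. Car2 at E16 was -0.12 with centred arrays, -0.40 with probe sets averaged and -0.016 without intestine E16 replicate 8. The cause was not tested.

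The replicate number was not treated as a pairing, since no label gives it that meaning and not every same-numbered pair of arrays deviated together. Between intestine and lung at E20 their median correlation was -0.093, with 4 of 10 pairs over 0.1 and 1 of 10 arrays matching its own number best. At E16 it was 0.27, against -0.038 for other numbers, with 7 of 10 pairs over 0.1 and 6 of 10 matching their own number best. Between the ages, same-numbered arrays had a median of 0.10 in intestine and 0.11 in lung, with 5 of 10 pairs over 0.1 in each. Other numbers had -0.010 and -0.013 there. The E16 values are a hint that the numbers are shared between tissues there, and what a number stands for was not tested. With the replicate block 7 genes were called in intestine, 0 in lung, 7 for the difference of changes, and between tissues 0 at E16 and 7 at E20, as without it. The sets of E20 intestine arrays, the removal of replicate 8, the Car2 relation and the combination of calls met by 6 genes were added after seeing the data. Alternatives planned for correlations among the 8 genes are not reported, because a pooled correlation would mix those sets. Signal near background limits the fold of every gene that was dim at E16.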
